A study of Mus musculus with 15 samples.

Results

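The genes whose symbols begin with Eif1 to Eif6 were taken from the deposited cortex RNA-seq table by symbol alone, with no use of their values. They were 58 of 23235 genes. Translation initiation loads the small ribosomal subunit with the start tRNA, brings it to the capped end of an mRNA and moves it to the start codon, where the large subunit joins. eIF2 delivers the start tRNA, eIF3 holds the small subunit, and eIF4E, eIF4G and eIF4A bind the cap, bridge to the ribosome and unwind the mRNA. In neurons this step is a point of control, through kinases that phosphorylate eIF2 alpha and through the eIF4E-binding proteins, which mTOR inactivates.

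The symbols cover more than initiation factors. *Eif2c1* to *Eif2c4* are older symbols of the Argonautes, the small RNA-binding proteins of RNA silencing. *Eif2ak1* to *Eif2ak4* are the kinases of eIF2 alpha, *Eif4ebp1* to *Eif4ebp3* and *Eif4enif1* bind eIF4E, *Eif4a3* belongs to the exon junction complex, and eIF5A acts mainly in elongation. The 58 genes were therefore described in 11 groups by role.

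The RNA was from the cortex of adult mice in 4 groups, namely 3 WT mice at Zt +6, in the light, 2 *Snord116del* mice at Zt +6, 2 WT mice at Zt +16, in the dark, and 2 *Snord116del* mice at Zt +16. WT mice were C57BL/6J. *Snord116del* mice were of the strain B6(Cg)-Snord116tm1.1Uta/J, heterozygous (+/-), with the deletion inherited from the father, and were littermates of the WT mice. The deletion removes the *Snord116* cluster of the Prader-Willi locus and with it the host gene RNA *116HG*. The mice were housed with light from 6 am to 6 pm. Each group had 1 pooled FPKM value per gene, that is, the number of fragments scaled by transcript length and by library size. The spread between mice is unknown, so no test, SD or SE could be given, and the depth behind a value is not in the table.

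Brain chromatin had also been examined by ChIRP, in which biotinylated oligos complementary to an RNA retrieve the RNA with its bound DNA. Peak lists from a hemisphere of adult brain were used for 5 libraries, which were WT *116HG* ChIRP replicates 1 and 2, WT ChIRP with non-specific control (NSC) oligos, and *116HG* and NSC ChIRP on *Snord116del* brain. Each control list is a single library.

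Several facts of the whole series bear on the values. *Snord116* was listed at 0 in all 4 groups and so does not check the genotype. Of its neighbours in the locus, *Ipw* had 21.6, 3.40, 3.17 and 1.82 FPKM and *Snrpn* 65.3, 105, 90.02 and 149 FPKM in WT Zt +6, *Snord116del* Zt +6, WT Zt +16 and *Snord116del* Zt +16, so that *Ipw* in WT at Zt +16 was about as low as in *Snord116del*. The labels name an earlier table for both *Snord116del* Zt +6 mice and 1 WT Zt +6 mouse than for the other 6 mice, and the part of this in the results was not tested. In bulk tissue, fewer cells of a type and less RNA per cell cannot be told apart. No listed marker was at 0 in all groups. In the order WT Zt +6, *Snord116del* Zt +6, WT Zt +16 and *Snord116del* Zt +16, the summed FPKM of 6 neuronal markers was 689, 947, 564 and 771, and that of 5 astrocyte markers was 76.4, 228, 39.6 and 59.0. The sum of 5 oligodendrocyte markers was 429, 661, 704 and 1018, that of 5 microglial markers 21.3, 43.4, 21.3 and 33.6, and that of 4 endothelial markers 4.56, 17.1, 2.00 and 2.75. Markers of neighbouring tissue were present too. The sum of 4 choroid plexus markers, of which only *Ttr* had a mean of 1 FPKM or more, was 203, 185, 25.8 and 30.9, that of 5 striatal markers 159, 126, 277 and 452, and that of 3 hippocampal markers 16.5, 21.7, 16.4 and 31.4. By the fold used below for the genes, all 5 astrocyte, all 4 endothelial, 4 of 5 striatal, 3 of 6 neuronal, 3 of 5 microglial, 2 of 5 oligodendrocyte and 1 of 3 hippocampal markers were higher in *Snord116del* at Zt +6, and 1 hippocampal marker was lower. Of all genes that passed the expression filter below, 49.3% were higher and 7.62% lower. The markers were counted without that filter. The striatal sum followed *Penk*, at 145, 98.0, 264 and 429 FPKM, and so ran against those 4 markers. From light to dark in *Snord116del*, 3 striatal markers were lower and 1 higher. Lower were also 4 astrocyte, 4 endothelial, 2 neuronal, 2 oligodendrocyte, 1 microglial, 1 choroid plexus and 1 hippocampal markers. Higher were also 3 oligodendrocyte, 1 microglial and 1 hippocampal markers. Of all genes that passed the filter, 39.1% were lower and 25.0% higher in that comparison. The part of these markers in the results was not tested.

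*116HG* ChIRP peaks lay at most of these genes in one WT replicate and at few in the other. A peak was counted at a gene when it was inside the gene or within 2 kb of it. Replicate 1 had 459 such peaks at 56 of the 58 genes, against 59.4% of 21853 annotated genes. Replicate 2 had 16 peaks at 13 of the 58, against 13.9%. Of the 51 genes that passed the expression filter below, 50 had a replicate 1 peak and 11 a replicate 2 peak, against 93.6% and 17.5% of all annotated genes that passed it. Peaks in replicate 1 were largely exonic (392 of 459, 85.4%), while 13 of the 16 in replicate 2 were intronic and 1 was exonic. The most peaks in replicate 1 were at *Eif4g3*, with 36, and the median gene had 6. *Eif2c4* and *Eif4ebp1* had none there.

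The study counted a peak as replicated when the other WT *116HG* library had a peak within 10 kb. By that rule 14 of the 58 genes (24.1%) had a replicated peak of replicate 1, against 10.9% of annotated genes and 18.0% of the annotated genes that passed the expression filter below. They were *Eif1*, *Eif2a*, *Eif2ak4*, *Eif2b4*, *Eif2c2*, *Eif2d*, *Eif3c*, *Eif3h*, *Eif4e*, *Eif4e3*, *Eif4enif1*, *Eif4g3*, *Eif4h* and *Eif5*. Counted from replicate 2, 11 of the genes (19.0%) had a replicated peak, against 8.03% of annotated genes and 12.7% of those that passed the filter. The 14 genes were longer, with a median of 33080 bases from start to end against 17644 for the other 44. Of the 41 replicated peaks, 30 were exonic, and the median fold over input was 51.3, with a range from 21.0 to 318.

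Peaks of both replicates shared bases at 4 of the genes (6.90%), against 3.33% of annotated genes and 4.58% of those that passed the expression filter. The cap-binding genes *Eif4e* and *Eif4e3*, the scaffold gene *Eif4g3* and the Argonaute gene *Eif2c2* held the 6 peaks. They all lay in introns, with a fold over input from 24.0 to 92.1. On mm9 they were at chr15:72962852-72962915 in *Eif2c2*, chr3:138197049-138197125 in *Eif4e*, chr6:99354000-99354099 and chr6:99422773-99422919 in *Eif4e3*, and chr4:137569889-137569964 and chr4:137553674-137553776 in *Eif4g3*. Both *Eif4e3* peaks lay in an intron of the annotated gene but outside the span of its protein-coding transcripts, chr6:99575131-99616765. Whether they also lay in another gene was not examined. Counted against the span of protein-coding transcripts, 13 of the 58 genes had a replicated peak and 3 had peaks that shared bases.

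The sequences of the 6 peaks are shown because they have a feature in common that neither the choice of genes nor the peak calling used. Each is the replicate 1 peak on the strand of its gene, 5′ to 3′, and capitals mark the bases that the replicate 2 peak shared.
Eif2c2 intron: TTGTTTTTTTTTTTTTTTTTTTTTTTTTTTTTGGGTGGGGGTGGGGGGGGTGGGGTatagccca
Eif4e intron: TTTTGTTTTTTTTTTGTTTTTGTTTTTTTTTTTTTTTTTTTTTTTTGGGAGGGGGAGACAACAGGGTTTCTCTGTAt
Eif4e3 intron, first: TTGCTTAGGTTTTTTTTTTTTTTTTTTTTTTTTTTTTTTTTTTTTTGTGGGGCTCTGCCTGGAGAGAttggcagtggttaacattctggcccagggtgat
Eif4e3 intron, second: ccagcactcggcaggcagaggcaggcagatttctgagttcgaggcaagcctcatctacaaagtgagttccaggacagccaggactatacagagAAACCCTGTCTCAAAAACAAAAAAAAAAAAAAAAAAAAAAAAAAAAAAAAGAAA
Eif4g3 intron, first: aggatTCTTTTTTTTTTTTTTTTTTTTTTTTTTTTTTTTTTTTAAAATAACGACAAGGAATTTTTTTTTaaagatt
Eif4g3 intron, second: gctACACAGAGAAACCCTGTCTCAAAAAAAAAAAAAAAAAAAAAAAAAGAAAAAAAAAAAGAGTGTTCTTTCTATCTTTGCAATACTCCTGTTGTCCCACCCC

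Every one of the 6 peaks held an unbroken run of a single base, T or A. The runs were 29 bases in *Eif2c2*, 24 in *Eif4e*, 37 and 32 in *Eif4e3*, and 36 and 25 in *Eif4g3*. The shared bases took in the run in each case. The middle 32 bases of the peaks were found once in the genome for *Eif2c2* and for the first peaks of *Eif4e3* and *Eif4g3*, 4 times for *Eif4e*, 2 times for the second peak of *Eif4g3* and 901 times for the second peak of *Eif4e3*.

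The same feature was counted in all peaks on chromosomes of the reference genome used, with a run taken as at least 20 A or 20 T on the reference strand. Such a run was in 85.7% of the 1869 replicate 1 peaks that shared bases with a replicate 2 peak. It was in 8.17% of the 6169 that were within 10 kb without sharing bases and in 7.80% of the 69581 that were not replicated. Replicate 2 had a run in 32.6% of all its peaks and in 85.2% of those that shared bases with replicate 1. The control lists had a run in 4.5% of WT NSC peaks, 0.236% of *Snord116del* *116HG* peaks and 0.471% of *Snord116del* NSC peaks. At the 58 genes, 11 of 459 replicate 1 peaks held a run, and 6 of these were the peaks shown. With peaks that hold a run left out of both WT lists, a choice made after seeing the data, 7 of the genes kept a replicated peak, against 5.39% of annotated genes, and none had peaks that shared bases, against 0.48%. The 7 were *Eif2ak4*, *Eif2b4*, *Eif2d*, *Eif3c*, *Eif3h*, *Eif4enif1* and *Eif5*. Without such peaks, the shares were not counted among annotated genes that passed the expression filter. The part that such runs have in aligning reads or calling peaks was not tested.

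**Figure D1:**
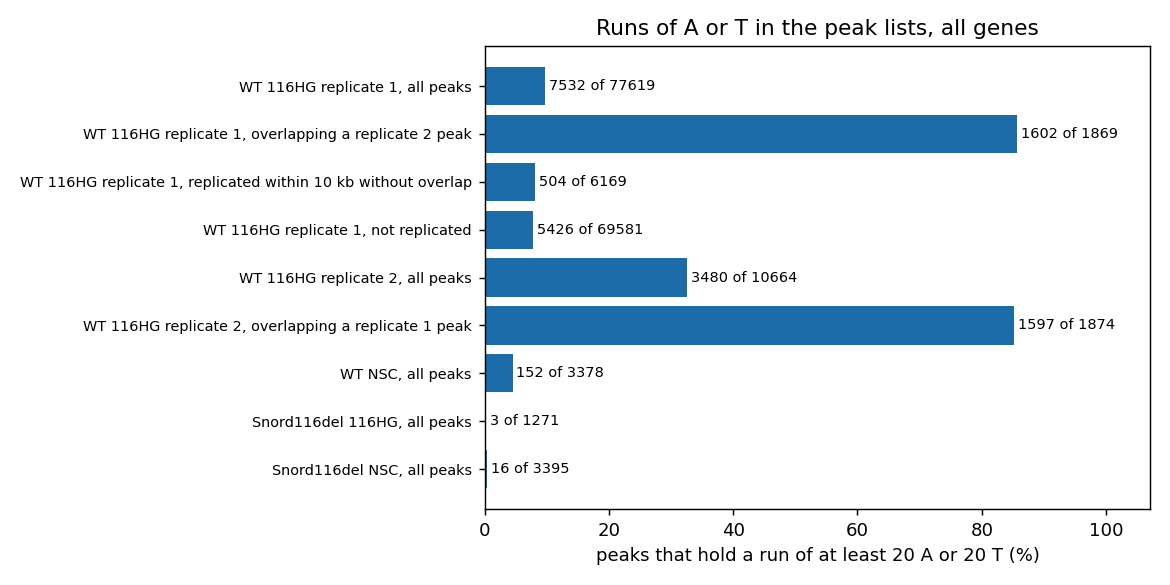
Bars give the percentage of peaks with an unbroken run of at least 20 A or 20 T, for each peak list and for the WT *116HG* replicate 1 peaks split by replication, over all genes; the counts stand beside the bars. Peaks that shared bases between the WT *116HG* replicates held a run in 85.7% and 85.2% of cases, while the other sets ranged from 0.236% to 32.6%.

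Peaks of the control lists were few at these genes. WT NSC had 1, in an intron of *Eif2c4* at chr4:126171745-126171910, and a WT *116HG* replicate 2 peak at chr4:126171755-126171818 lay within it. That gene was among 2.3% of annotated genes with a WT NSC peak. *Snord116del* *116HG* ChIRP had 1 peak, in an intron of *Eif3b* at chr5:140915072-140915293, against 2.26% of annotated genes. *Snord116del* NSC had 8 peaks at 7 genes, namely *Eif2ak1*, *Eif2c3*, *Eif3g*, *Eif3j*, *Eif3m*, *Eif4b* and *Eif4g2*. Such a peak was at 7.88% of annotated genes and at 10.6% of those that passed the expression filter. Of these 8 peaks, 7 were centred within 1000 bases of the start of the gene. Of all peaks in that list, at genes or not, 16.8% were that near a gene start, against 1.21% for WT NSC. The difference was not tested.

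**Figure D2:**
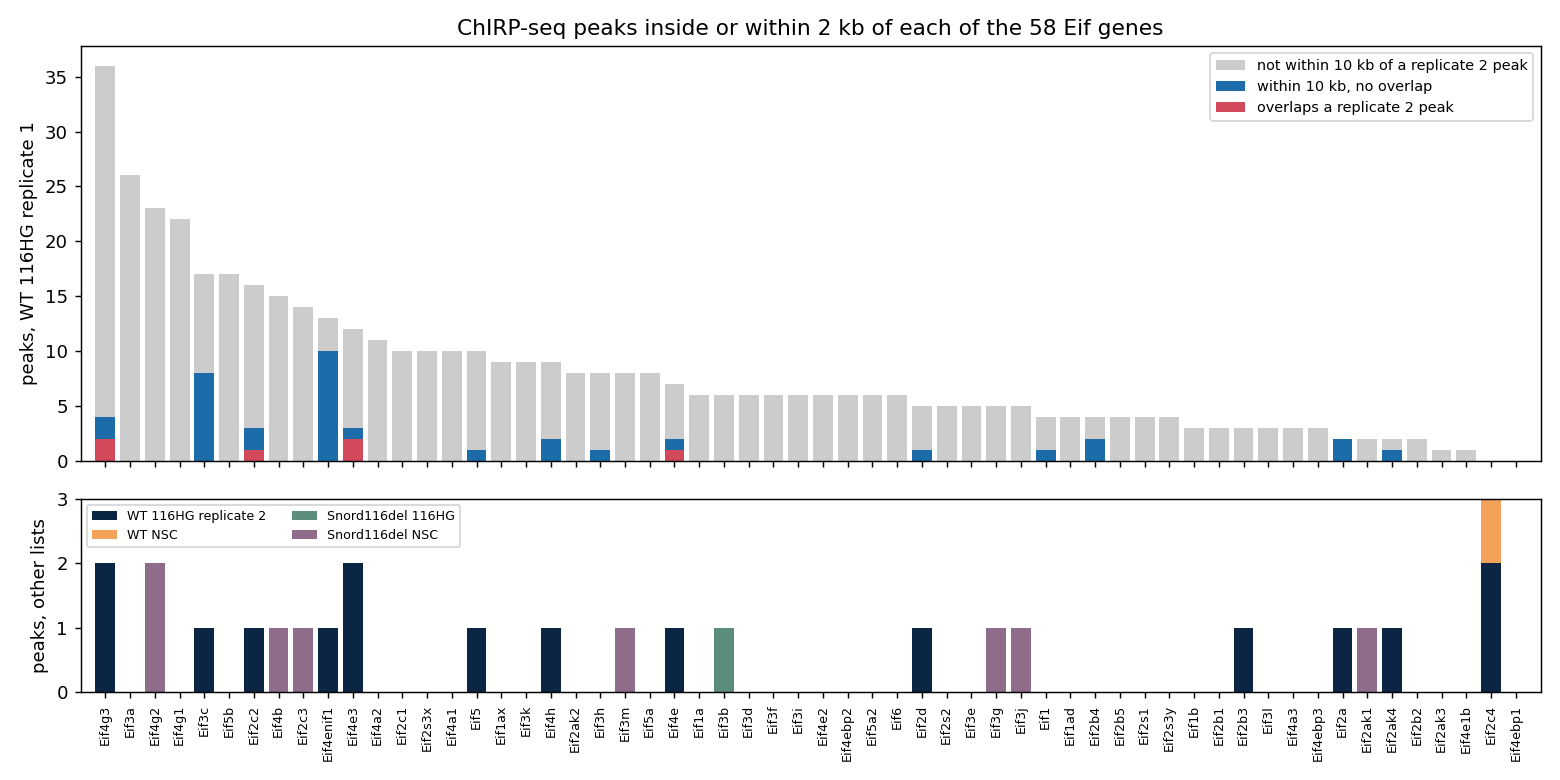
The upper bars count the WT *116HG* replicate 1 peaks inside or within 2 kb of each of the 58 genes, split by whether replicate 2 had a peak that shared bases, one within 10 kb or none; the lower bars count the peaks of the other 4 lists. Replicate 1 peaks reached 36 at *Eif4g3*, and the red segments, for shared bases, are at *Eif2c2*, *Eif4e*, *Eif4e3* and *Eif4g3* only.

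The levels of the genes spanned a wide range. *Eif1*, which keeps the scanning ribosome open for selection of the start codon, had the highest mean FPKM over the 4 groups, 309. It was followed by the eIF3 subunits *Eif3k*, at 195, and *Eif3g*, at 95.1, and by the helicase *Eif4a1*, at 66.7. *Eif4e1b*, a cap-binding relative known from oocytes, had the lowest mean, 0.147. Changes were counted for the 51 genes whose mean over the groups reached 1 FPKM, out of 10297 such genes in the table. The 7 under this limit were *Eif2ak2*, *Eif2ak3*, *Eif2ak4*, *Eif2b1*, *Eif2c4*, *Eif4e1b* and *Eif4ebp2*. A gene was called higher or lower when its FPKM + 1 differed at least 1.5-fold between the groups, with 1 FPKM or more in the higher of them. Of the 51 genes, 4 passed the filter only through their highest group, with a mean under 1 FPKM over the other 3. These were *Eif2c2*, *Eif2c3* and *Eif2s1*, through *Snord116del* Zt +6, and *Eif3j*, through WT Zt +16, so that a difference of that group was set by the filter.

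**Figure D3:**
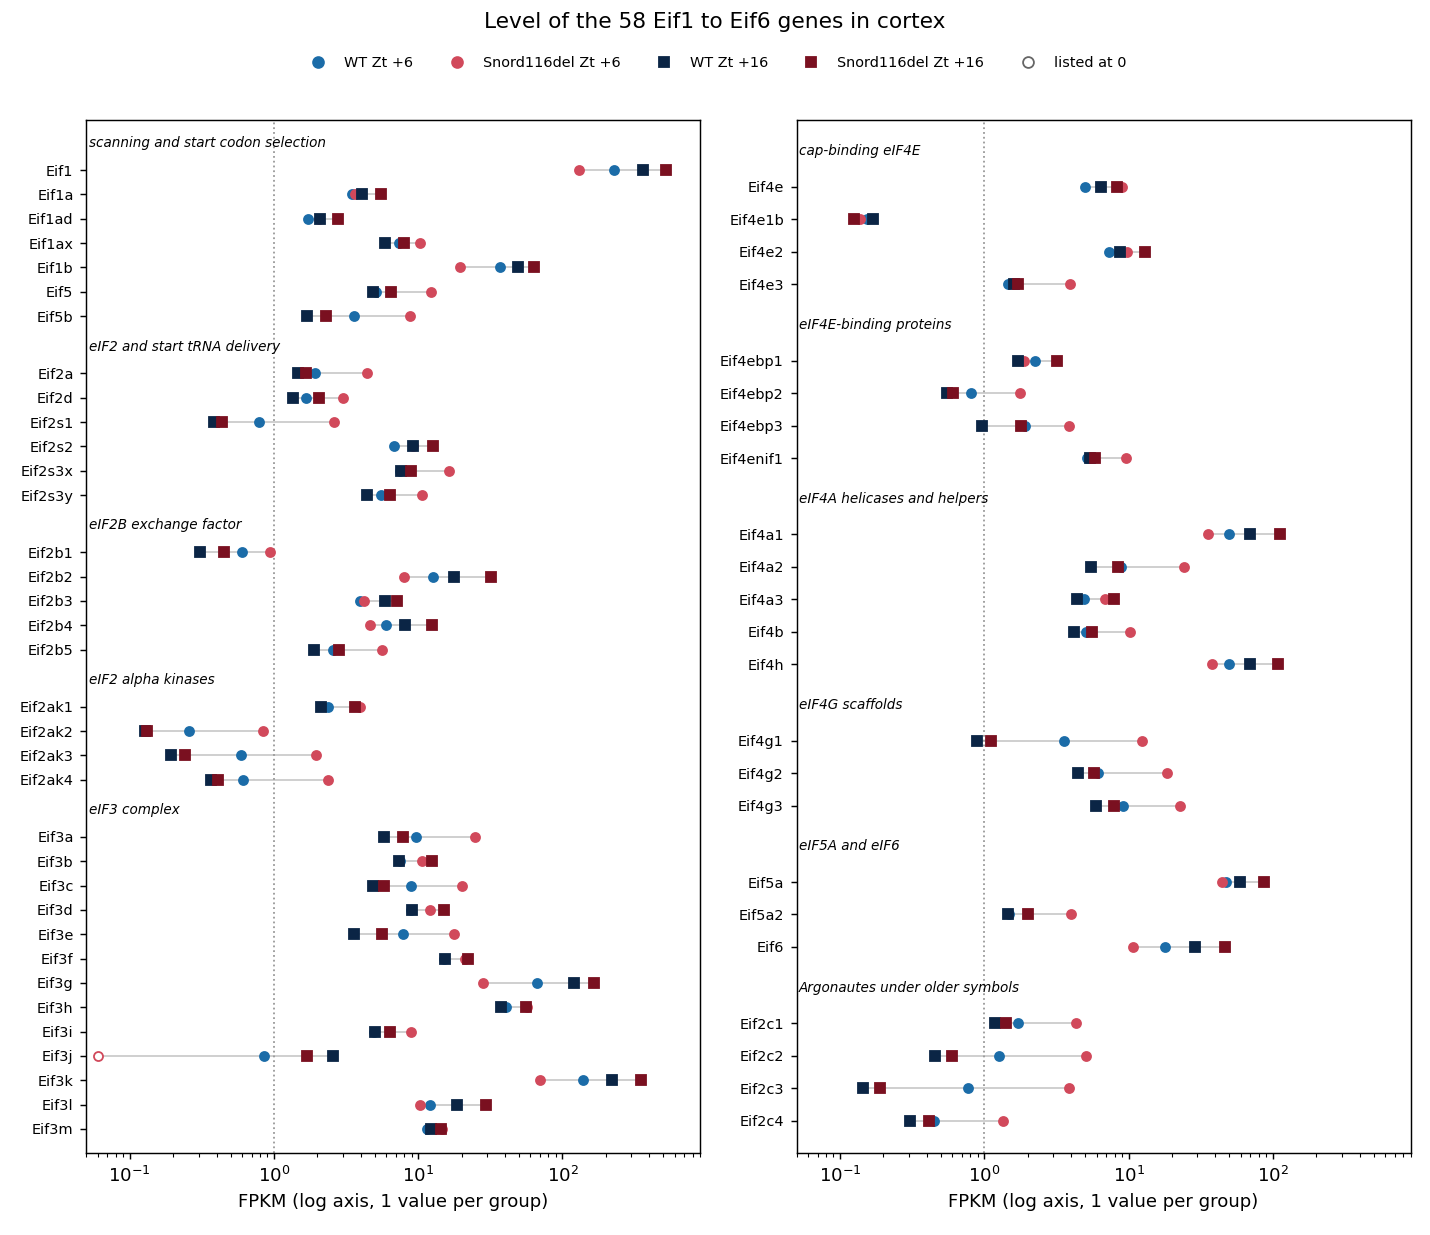
Points give the FPKM of each of the 58 genes in the 4 groups on a log axis, by role, with 1 pooled value per group, circles for Zt +6 and squares for Zt +16; the dotted line is 1 FPKM and the hollow circle marks the value listed at 0. *Snord116del* at Zt +6 lies highest for genes that include the 3 eIF4G and the 4 Argonaute genes, and lowest for genes that include *Eif1*, *Eif3g* and *Eif3k*. Of the 51 genes that passed the filter, it was highest for 29 (56.9%; 57.7% of all genes) and lowest for 12 (23.5%; 21.4% of all genes). *Eif2c2* and *Eif2c3* passed the filter only through that group, and *Eif2c4* was under it.

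At Zt +6, in the light, 24 of the 51 genes were higher in *Snord116del* than in WT (47.1%) and 6 were lower (11.8%). Of all genes tested, 49.3% were higher and 7.62% lower, so both shares were near the background. The median log2 fold change was 0.55 for the 51 genes and 0.57 for all genes. The direction depended on the scale of the groups. With the same total FPKM in every group, 25 genes were higher and 7 lower. With every group set to the same median FPKM, which moved the median of all genes to −0.06, 4 genes were higher and 13 lower. With quantile normalization the counts were 12 and 11, and after subtracting the running median along transcript length they were 4 and 8.

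All 3 eIF4G scaffolds, which bridge the cap-binding protein and the ribosome, were higher in *Snord116del* at Zt +6, as were 49.3% of all genes. *Eif4g1* and *Eif4g2* had the largest rises of the 51 genes on the FPKM + 1 scale. *Eif4g1* had 3.58 FPKM in WT Zt +6, 12.3 in *Snord116del* Zt +6, 0.895 in WT Zt +16 and 1.11 in *Snord116del* Zt +16. *Eif4g2*, which lacks the eIF4E-binding site, had 6.13, 18.6, 4.48 and 5.77 FPKM in the same order. *Eif4g3* had 9.18, 22.9, 5.91 and 7.94 FPKM. In all 3, *Snord116del* at Zt +6 stood above the other groups, which lay close together for *Eif4g2* and *Eif4g3*. On the FPKM + 1 scale they were 2.91-fold, 2.75-fold and 2.34-fold higher in *Snord116del* at Zt +6. Relative to genes of like transcript length, that is, with the length trend removed, none of the 3 was called and *Eif4g3* was at −0.00916 on the log2 scale.

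The Argonautes showed the same order of groups. *Eif2c2*, which encodes the slicing Argonaute, had 1.27, 5.05, 0.458 and 0.594 FPKM, and *Eif2c3* had 0.771, 3.84, 0.145 and 0.189 FPKM. Both passed the filter only through *Snord116del* at Zt +6. They were 2.66-fold and 2.74-fold higher on the FPKM + 1 scale at Zt +6, and *Eif2c1*, with 1.71, 4.29, 1.19 and 1.42 FPKM, was 1.96-fold higher. With the length trend removed, *Eif2c1* turned to −0.21 on the log2 scale.

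Among the helicases and their helpers, *Eif4a2* and *Eif4b* were higher in *Snord116del* at Zt +6. *Eif4a2*, the form enriched in brain, had 8.93, 24.4, 5.47 and 8.51 FPKM and was 2.56-fold higher in *Snord116del* at Zt +6. Its paralog *Eif4a1* had 49.8, 35.7, 69.1 and 112 FPKM, with a log2 change of −0.47 at Zt +6 that was not called. The ratio of *Eif4a1* to *Eif4a2* FPKM was 5.57 in WT Zt +6, 1.46 in *Snord116del* Zt +6, 12.6 in WT Zt +16 and 13.2 in *Snord116del* Zt +16. A ratio within a group does not depend on the scale of the group. *Eif4b*, which stimulates the helicase, was 1.84-fold higher, while *Eif4h* had 49.9, 38.1, 69.8 and 109 FPKM and was not called at Zt +6.

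Of the 13 eIF3 genes, 4 were higher at Zt +6 and 2 lower, against 49.3% and 7.62% of all genes. *Eif3a*, the largest core subunit, had 9.70, 24.9, 5.76 and 7.87 FPKM and was 2.43-fold higher in *Snord116del*. *Eif3c*, its core partner, had 8.96, 20.2, 4.84 and 5.81 FPKM, and *Eif3e* had 7.81, 17.8, 3.59 and 5.57 FPKM, each 2.13-fold higher. *Eif3i* was 1.66-fold higher. In these 4 genes *Snord116del* at Zt +6 was the highest group. *Eif3g*, an RNA-binding subunit, had 67.0, 28.1, 120 and 165 FPKM and was 2.33-fold lower in *Snord116del* at Zt +6, the largest fall among the 51 genes. *Eif3k* had 138, 69.4, 222 and 350 FPKM and was 1.97-fold lower. In both genes *Snord116del* was the lowest group at Zt +6 and the highest at Zt +16. Subunits of the complex thus differed in direction within the same libraries, with a ratio of *Eif3k* to *Eif3a* FPKM of 14.2, 2.78, 38.6 and 44.5 in the same order. Their longest annotated transcripts differ too, at 909 bases for *Eif3k* and 5176 for *Eif3a*. With the length trend removed, *Eif3e* and *Eif3h* were called higher at Zt +6 and *Eif3g* lower, and no other eIF3 gene was called. *Eif3j*, a loosely bound subunit with near-identical gene copies, had 0.855 and 2.57 FPKM in WT and 1.69 FPKM in *Snord116del* Zt +16, and was listed at 0 in *Snord116del* Zt +6. No fold is given against that 0.

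For eIF2 and the delivery of the start tRNA, 4 of 6 genes were higher at Zt +6 and none lower, against 49.3% and 7.62% of all genes. *Eif2s3x* and *Eif2s3y*, the X- and Y-linked copies of the gamma subunit, had 7.52 and 5.48 FPKM in WT Zt +6 and 16.3 and 10.6 FPKM in *Snord116del* Zt +6. *Eif2s1*, the alpha subunit that the stress kinases phosphorylate, had 0.785, 2.59, 0.384 and 0.437 FPKM and was 2.01-fold higher on the FPKM + 1 scale, having passed the filter only through that group. *Eif2a*, an alternative carrier of the start tRNA, was 1.85-fold higher, whereas *Eif2s2*, the beta subunit, and *Eif2d* were not called. *Eif2d* missed the rule by a small margin, at 1.499-fold.

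The eIF2B genes encode the factor that recharges eIF2 with GTP. *Eif2b5*, the catalytic subunit, had 2.58, 5.63, 1.89 and 2.81 FPKM and was 1.85-fold higher at Zt +6. *Eif2b2* had 12.7, 8.01, 17.8 and 31.8 FPKM and was 1.52-fold lower at Zt +6. *Eif2b3* and *Eif2b4* were called at neither time between genotypes, and *Eif2b1* stayed under 1 FPKM in every group, from 0.308 to 0.942.

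Of the 4 eIF2 alpha kinases, *Eif2ak1*, which responds to haem, passed the filter, with 2.37, 3.92, 2.13 and 3.62 FPKM. It was called in no comparison, with a log2 change between genotypes of 0.55 at Zt +6 and 0.56 at Zt +16. *Eif2ak2*, activated by double-stranded RNA, had 0.257, 0.845, 0.129 and 0.132 FPKM. *Eif2ak3*, the kinase of endoplasmic reticulum stress, had 0.591, 1.95, 0.194 and 0.240 FPKM, and *Eif2ak4*, which senses amino acid shortage, had 0.607, 2.35, 0.366 and 0.410 FPKM. For these 3 genes *Snord116del* at Zt +6 was the highest group, but their means were under the filter and no call was made.

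Among the cap-binding genes, *Eif4e* had 4.97, 9.02, 6.43 and 8.36 FPKM and was 1.68-fold higher in *Snord116del* at Zt +6. *Eif4e3* had 1.46, 3.93, 1.59 and 1.72 FPKM and was 2.00-fold higher. *Eif4e2*, a repressive relative that competes for the cap, had 7.27, 9.72, 8.77 and 13.1 FPKM and was not called in any comparison. *Eif4e1b* lay between 0.125 and 0.170 FPKM in the 4 groups.

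The genes that restrain eIF4E did not move together. *Eif4ebp1* had 2.25, 1.89, 1.70 and 3.17 FPKM, with a log2 change of −0.17 at Zt +6. *Eif4ebp2*, the main form in brain, had 0.814, 1.78, 0.555 and 0.611 FPKM and was under the filter. *Eif4ebp3*, with the shortest transcript of the 51 genes, had 1.91, 3.87, 0.959 and 1.80 FPKM and was 1.67-fold higher at Zt +6. *Eif4enif1*, which carries eIF4E into the nucleus, had 5.19, 9.58, 5.43 and 5.89 FPKM and was 1.71-fold higher. The ratio of *Eif4ebp1* to *Eif4e* FPKM was 0.452, 0.209, 0.265 and 0.379 in the order used above.

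The 7 genes of scanning and start codon selection split at Zt +6 into 2 higher, 2 lower and 3 not called. Of all genes, 49.3% were higher and 7.62% lower. *Eif5*, which triggers GTP hydrolysis by eIF2, had 5.14, 12.4, 4.88 and 6.47 FPKM and was 2.18-fold higher. *Eif5b*, the GTPase of subunit joining, had 3.59, 8.73, 1.70 and 2.30 FPKM and was 2.12-fold higher, but was at −0.15 on the log2 scale with the length trend removed. *Eif1* had 227, 131, 361 and 518 FPKM and was 1.73-fold lower, and its paralog *Eif1b* had 37.1, 19.4, 49.2 and 63.5 FPKM and was 1.87-fold lower. In the remaining group, *Eif5a2* was 2.02-fold higher and *Eif6*, which keeps the large subunit from joining early, had 17.8, 10.8, 28.8 and 46.3 FPKM and was 1.60-fold lower. *Eif5a* had 47.2, 44.2, 58.8 and 86.7 FPKM and was not called between genotypes.

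At Zt +16, in the dark, differences between genotypes were smaller and almost all in one direction. The log2 change was above 0 for 50 of the 51 genes, with *Eif3j* the exception, and its median was 0.38 against 0.35 for all genes. *Eif3j* passed the filter only through WT Zt +16, so its lower value in *Snord116del* at Zt +16 was set by the filter. The share of all genes above 0 was not counted. Of the 51 genes, 10 were higher in *Snord116del* (19.6%) and 0 lower, against 19.0% and 0.204% of all genes tested. No test was made. The 10 were *Eif2b2*, *Eif3b*, *Eif3d*, *Eif3k*, *Eif3l*, *Eif4a1*, *Eif4a3*, *Eif4ebp1*, *Eif4h* and *Eif6*, between 1.54-fold for *Eif4ebp1* and 1.75-fold for *Eif2b2*. Under the same median, the same total, quantile normalization or removal of the length trend, 0 genes were higher and 1, *Eif3j*, was lower. Setting the same total in every group moved the median of all genes to −0.11 and put *Eif3k* and *Eif4h* just under 0, at −0.00402 and −0.0202.

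No Eif gene was higher in *Snord116del* at both times, against 2.99% of all genes. Of the 24 genes that were higher at Zt +6, none was called at Zt +16, as was the case for 93.8% of all genes higher at Zt +6. Of the 51 genes, 14 were called at neither time (27.5%; 31.6% of all genes). *Eif2b2*, *Eif3k* and *Eif6* were lower at Zt +6 and higher at Zt +16 (5.88%; 4.55% of all genes). Between the times the genotype effect changed at least 1.5-fold upward at Zt +16 for 12 genes (23.5%; 19.4% of all genes) and downward for 17 (33.3%; 33.5% of all genes). The largest upward change was that of *Eif3g*, from −1.22 to 0.46 on the log2 scale. The largest downward changes were those of *Eif2c3*, from 1.45 to 0.05, for which the filter limit above holds, and *Eif4g1*, from 1.54 to 0.16.

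**Figure D4:**
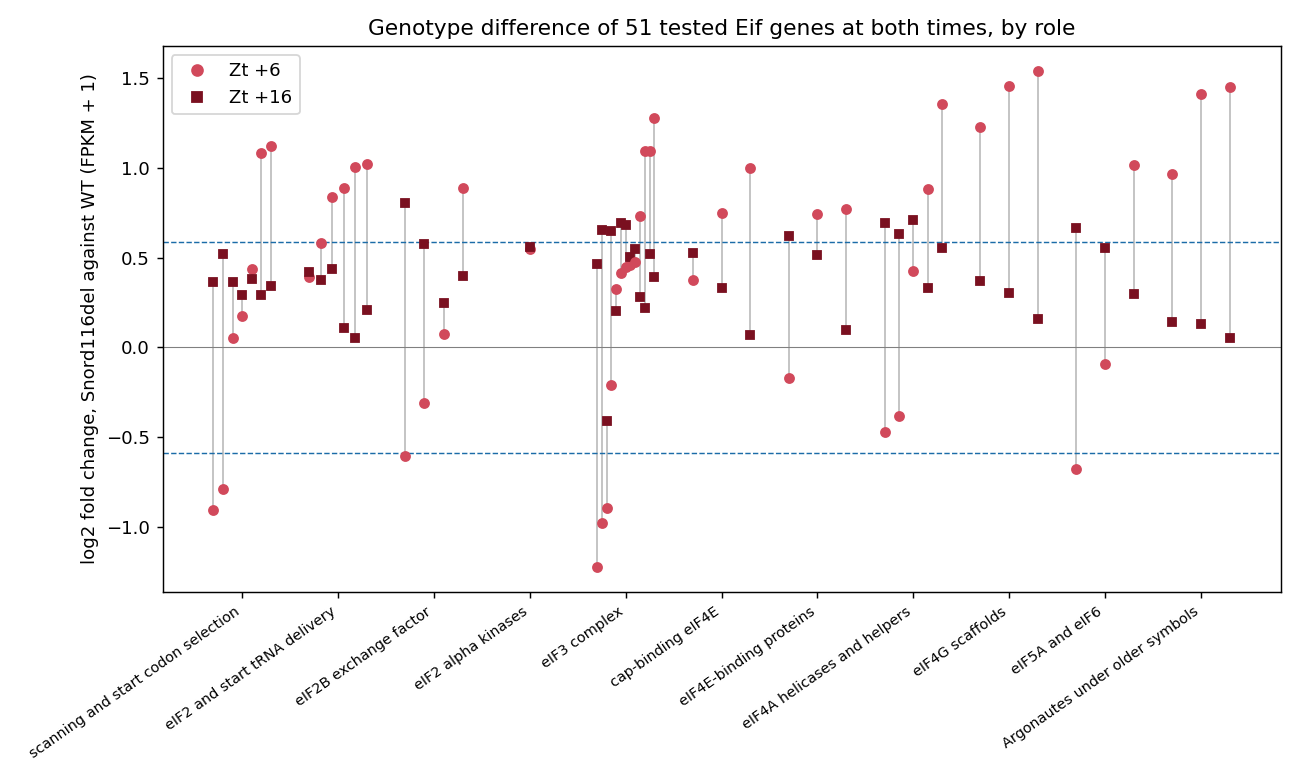
Each vertical line is 1 of the 51 genes, grouped by role, and joins its log2 fold change of FPKM + 1 between *Snord116del* and WT at Zt +6 (circle) and at Zt +16 (square); dashed lines mark the 1.5-fold rule. At Zt +6 the values run from −1.22 to 1.54 and at Zt +16 from −0.41 to 0.80, with all 3 eIF4G genes and all 3 tested Argonautes above the upper dashed line at Zt +6 only. For the Argonautes *Eif2c2* and *Eif2c3* this was set by the filter, which they passed only through *Snord116del* Zt +6. The −0.41 at Zt +16 is that of *Eif3j*, which passed only through WT Zt +16, so it too was set by the filter. Of all genes tested, 49.3% were higher at Zt +6.

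From light to dark in WT, 6 of the 51 genes were higher (11.8%; 5.71% of all genes) and 7 lower (13.7%; 10.3% of all genes). *Eif1*, *Eif3g*, *Eif3j*, *Eif3k*, *Eif3l* and *Eif6* were higher at Zt +16, with a log2 change from 0.59 for *Eif3l* to 0.95 for *Eif3j*, which passed the filter only through WT Zt +16. *Eif2c2*, *Eif3a*, *Eif3c*, *Eif3e*, *Eif4a2*, *Eif4g1* and *Eif5b* were lower, and *Eif4g1* fell by 1.27 on the log2 scale, the largest change. The counts higher and lower were 9 and 5 under the same median, 1 and 17 under the same total, 1 and 6 under quantile normalization, and 1 and 5 with the length trend removed.

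From light to dark in *Snord116del*, 13 genes were higher (25.5%; 25.0% of all genes) and 22 lower (43.1%; 39.1% of all genes). The 13 called in WT were called in the same direction here. The share of all genes with such agreement was not counted, so nothing particular to the Eif genes can be read from it. *Eif2c2* and *Eif3j*, both among the 13, passed the filter only through their highest group. WT and *Snord116del* share no mice in these comparisons, but both use a Zt +6 group of the genotype comparison above. The largest rises were 5.71-fold for *Eif3g*, 4.98-fold for *Eif3k*, 4.01-fold for *Eif6*, 3.93-fold for *Eif1*, 3.63-fold for *Eif2b2* and 3.17-fold for *Eif1b*. The largest falls were 6.30-fold for *Eif4g1*, 4.08-fold for *Eif2c3*, 3.79-fold for *Eif2c2*, 3.12-fold for *Eif3c*, 2.95-fold for *Eif5b* and 2.93-fold for *Eif3a*. *Eif2c3* and *Eif2c2* passed the filter only through *Snord116del* Zt +6, so their falls from that group were set by the filter. The counts were 20 higher and 13 lower under the same median, 7 and 34 under the same total, 14 and 14 under quantile normalization, and 15 and 10 with the length trend removed.

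Change tracked the length of the transcript, among these genes and among all genes. Genes with short transcripts were those lower in *Snord116del* at Zt +6. Of the 15 genes with a longest annotated transcript of up to 2000 bases, 2 were higher and 6 lower. Of the 23 over 2000 and up to 4000 bases, 13 were higher and 0 lower, and of the 13 over 4000 bases, 9 were higher and 0 lower. Over all genes in these classes, 16.1%, 45.5% and 81.0% were higher and 22.9%, 2.94% and 0.506% lower, in the same order. Spearman's rho of the log2 change with length was 0.64 across the 51 genes and 0.63 across 10165 genes at Zt +6, and −0.60 and −0.38 at Zt +16. From light to dark it was −0.44 and −0.49 in WT, and −0.62 and −0.62 in *Snord116del*. These are descriptions across genes of the same libraries, which are not independent. *Eif3e* and *Eif4ebp3* were the 2 short genes that were higher, and after removal of the trend they, *Eif3h* and *Eif4a2* were the genes called higher. *Eif1*, *Eif2b2*, *Eif2b3*, *Eif2b4*, *Eif3g*, *Eif4a1*, *Eif4h* and *Eif6* were then called lower.

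**Figure D5:**
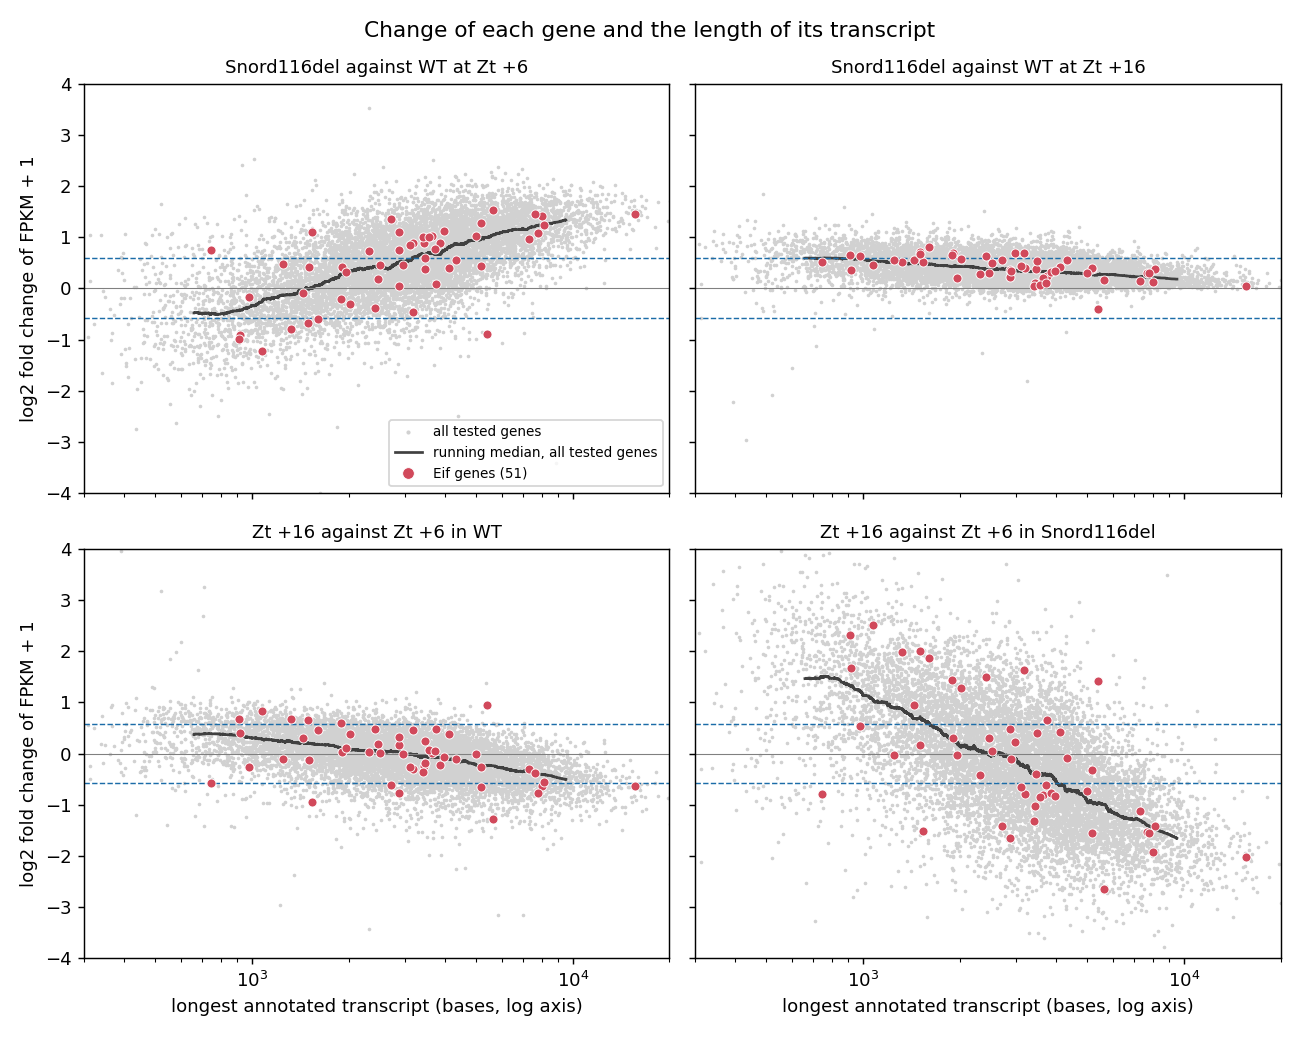
Each panel plots the log2 fold change of FPKM + 1 of the tested genes against the length of the longest annotated transcript on a log axis, with the 51 Eif genes in red, the other genes in grey, the running median over genes as a line and the 1.5-fold rule dashed. At Zt +6 the *Snord116del* values rise with length and from light to dark in *Snord116del* they fall with length, with a rho for the Eif genes of 0.64 and −0.62.

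The share of FPKM held by a few genes shifted with the group. The 5 highest genes took 58.8% of the summed FPKM of the 58 genes in WT Zt +6, 35.8% in *Snord116del* Zt +6, 68.2% in WT Zt +16 and 68.9% in *Snord116del* Zt +16. The 58 genes together held 0.567%, 0.527%, 0.571% and 0.532% of the FPKM of the table, so their summed share moved little. *Snord116del* was the highest group for 29 of the 51 genes at Zt +6 (57.7% of all genes) and for 21 at Zt +16 (41.1% of all genes).

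Other genes of translation, from a list of 42 of which 40 passed the filter, were counted by the same rule. At Zt +6, 25 were higher in *Snord116del* and 2 lower, with a median log2 change of 0.69, that is, 62.5% and 5.0% against 49.3% and 7.62% of all genes, whose median was 0.57. At Zt +16, 8 were higher (20.0%; 19.0% of all genes) and 0 lower (0.204% of all genes). *Cyfip2*, which encodes a partner of the fragile X protein, had 21.7, 70.2, 11.1 and 14.5 FPKM, the largest rise at Zt +6 and the largest fall from light to dark in both genotypes. *Atf4*, a transcription factor whose translation rises when eIF2 alpha is phosphorylated, had 36.4, 19.1, 54.2 and 79.0 FPKM, the largest fall at Zt +6 and the largest rise from light to dark in *Snord116del*. *Dohh*, which completes the hypusine of eIF5A, had 20.8, 13.0, 23.6 and 40.3 FPKM and was the largest rise at Zt +16. *Eef1a2*, an elongation factor of neurons, had 146, 159, 269 and 409 FPKM, the largest rise from light to dark in WT. From light to dark, 1 of the 40 was higher (2.5%; 5.71% of all genes) and 4 lower (10.0%; 10.3%) in WT, and 7 were higher (17.5%; 25.0%) and 19 lower (47.5%; 39.1%) in *Snord116del*.

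Genes with a replicated *116HG* peak were called higher at Zt +6 in 8 of 13 tested cases, against 16 of the 38 without. Their median log2 change was 0.77 against 0.44, and their median transcript length was 3449 bases against 3040. The difference was not tested, and transcript length moved with it. Of the 4 genes whose peaks shared bases, *Eif2c2*, *Eif4e*, *Eif4e3* and *Eif4g3*, each was higher in *Snord116del* at Zt +6, as were 49.3% of all genes. *Eif2c2*, also among the 8, passed the filter only through *Snord116del* Zt +6, so its call was set by the filter. The same holds for *Eif2c3* and *Eif2s1*, among the 16. The *Eif4e3* peaks lay outside its protein-coding transcript.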

How the data were processed

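For the RNA-seq, the authors aligned reads to mm9 with TopHat2 (2.0.5 in the submitters' notes) and deposited 1 FPKM value from Cuffdiff (2.0.2) for each gene in each group. Columns of log2 fold changes and q-values in the deposited table are the authors' own comparisons and were not used. For ChIRP, the authors aligned reads with Bowtie2 (2.0.0), called peaks with MACS (1.4.2) in each library against WT input, and filtered them on the false discovery rate and fold. Each deposited peak has a ratio, its fold over input. The list of WT *116HG* replicate 2 gives positions only.

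The design assumed values per mouse where given. The table has group values, so log2(FPKM + 1) was compared by the 1.5-fold rule among genes whose mean reached 1 FPKM, with no test. Fold changes on this scale understate those of low genes. Depth and spread limit every value, and the spread is unknown here. The paper lists the reads of each RNA-seq library, and the *Snord116del* mice in the light had the fewest. The part of read depth in the results was not tested. Annotation and sequence were NCBIM37 with GENCODE vM1, the assembly of mm9. Of the 23235 genes, 21853 matched by symbol, as did all 58 Eif genes. Counting near-identical copies, such as *Eif3j* or *Eif2s3x* and *Eif2s3y*, may split reads.

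Genes were named as up to 6 largest rises and falls per comparison, extremes of each role, and all eIF4E, eIF4E-binding and kinase genes. Others were named as members of a counted group. Members, lists and comparisons were chosen with earlier results of these data known. Steps were tested on simulated data. Python 3.11.15, numpy 2.4.6, pandas 2.3.3 and matplotlib 3.10.9 were used.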

Additional observations from a re-analysis of the deposited data

Results flagged for a closer look

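*Eif2b2*, *Eif3k* and *Eif6* were past the 1.5-fold rule in opposite directions at the 2 times, lower in *Snord116del* than in WT at Zt +6 and higher at Zt +16. The log2 fold change at Zt +16 minus that at Zt +6 was 1.41 for *Eif2b2*, 1.63 for *Eif3k* and 1.34 for *Eif6*. The difference was not tested, since each group has 1 pooled value. Under the same median, the same total, quantile normalization or removal of the length trend, no gene was called higher at Zt +16.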

How the results depend on the processing

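No paired analysis was possible because the table holds 1 pooled value per group. Of 77 counts under alternative settings, 38 were within 1.5 times the reported count. For *Snord116del* against WT at Zt +6, 24 higher and 6 lower, the higher count was 13 with a 5 FPKM filter, 15 with a 2-fold rule, 4 with the same median, 12 with quantile normalization and 4 with the length trend removed, and the lower count was 1 with a 2-fold rule, 13 with the same median and 11 with quantile normalization. At Zt +16 the higher count of 10 went to 0 with a 2-fold rule, the same median, the same total, quantile normalization and the length trend removed, and the lower count of 0 went to 1 with the last 4 of these. From light to dark in WT, 6 higher and 7 lower became 0 and 1 with a 2-fold rule and 1 and 17 with the same total. The higher count was 1 with quantile normalization and with the length trend removed, and the lower count was 4 with a 5 FPKM filter. In *Snord116del*, 13 higher became 20 with the same median and 7 with the same total, and 22 lower became 11 with a 5 FPKM filter, 13 with a 2-fold rule, 13 with the same median, 34 with the same total, 14 with quantile normalization and 10 with the length trend removed. The 17 genes whose genotype effect was lower at Zt +16 became 6 with the same median. The causes were not tested.

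Of 1564 values of the 51 genes under alternatives, 1281 kept direction and call, 195 lost the call, 77 gained one and 11 changed sign. With the length trend removed, the log2 change at Zt +6 was −0.21 for *Eif2c1*, −0.00916 for *Eif4g3* and −0.15 for *Eif5b*, and from light to dark in *Snord116del* it was 0.18 for *Eif2c1*, 0.0483 for *Eif4g3* and 0.22 for *Eif5a2*. With the same total, *Eif3k* was at −0.00402 and *Eif4h* at −0.0202 at Zt +16, and *Eif2b3* at −0.27 and *Eif5a* at −0.12 from light to dark in *Snord116del*. With quantile normalization *Eif4h* was at −0.0118 at Zt +16.

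The 14 genes with a replicated *116HG* peak became 4 where replicates overlap directly, 8 within 2 kb, 6 in the upper quartile of the fold, 7 with peaks holding a run of A or T left out and 0 with those left out and direct overlap. Leaving out a replicate, so that any peak of the other counts, gave 13 to 56.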

Other observations

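Promoters from 250 bases before to 50 after the gene start were at hand for 46 of the 58 genes, from RefSeq on GRCm38.p6. The E-box CACGTG, which is its own reverse complement and is the site of the clock factors CLOCK and BMAL1, was in 10 of the 46 (21.7%), compared with 12.3% of 8215 expressed genes and 8.09% of 27025 genes. The 10 were *Eif1b*, *Eif3a*, *Eif3f*, *Eif3k*, *Eif4a1*, *Eif4e*, *Eif4g1*, *Eif4h*, *Eif5a* and *Eif5a2*. The ETS motif CCGGAAGT, on either strand, was in 8 (17.4%), compared with 9.09% of expressed genes. The cAMP response element TGACGTCA and a YY1 motif were in no window of the 46 genes, compared with 3.76% and 2.01% of expressed genes. A match is only a match of letters in this window, and no difference was tested.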
